A study of Mus musculus with 24 samples.

Results

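The 46 genes described here are those whose symbols begin with Nduf in a table of 15456 genes, measured in the medial prefrontal cortex (mPFC) of 24 mice. Membership rests on the symbol alone, with no threshold on a value, and the genes encode nuclear subunits of mitochondrial complex I (Ndufb1, of the membrane arm, was not analysed here), its Nduf-named assembly factors and 2 proteins that carry the name but are placed with complex IV. Of these, 7 are core subunits, 10 are accessory subunits of the matrix arm, 19 are accessory subunits of the membrane arm, 8 are assembly factors (Ndufaf1 to Ndufaf8), and 2 are Ndufa4 and Ndufa4l2. All 46 passed the filter on low values, a mean of at least 10 normalized counts, which left 14974 genes for testing.

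The mice were BALB/c males of postnatal week 11, in 4 groups of 6: controls without treatment by their label (PBS in the methods), duloxetine, *R. flavefaciens*, and *R. flavefaciens* together with duloxetine, called combined here. Duloxetine, a reuptake inhibitor of serotonin and norepinephrine, was injected i.p. every day, and the gut bacterium *R. flavefaciens* was given by gavage over the same weeks. No stress protocol was applied, though daily injection is itself a stressor, and the strain was chosen by the study for its depressive-like behaviour. The mice were housed several to a cage, with cage and group not separable from the labels. Each mouse gave 1 library of 12811413 to 15607343 recovered reads (median 14455107), with group medians of 13591497 for control, 14536037 for duloxetine, 13943370 for *R. flavefaciens* and 14621656 for combined mice. Values are normalized counts, that is, reads per gene divided by a size factor of each mouse, and they compare a gene between mice. Levels of different genes are compared only per kilobase of transcript.

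The libraries of 4 mice stood apart. In the *R. flavefaciens* mouse 9_3 the deviation of a gene from its mean over all mice declined with transcript length more steeply than in any other mouse (Spearman's rho -0.55 across genes), followed by *R. flavefaciens* mice 7_2 (-0.30) and 8_4 (-0.24), while the control mice lay between 0.12 and 0.25. Mice 7_2 and 8_4 also had the fewest reads, 12811413 and 12834286. Mouse 8_4 and the combined mouse 11_4 had the highest sums of 6 striatal markers, 4720 and 2748 normalized counts, against 1368 to 1937 in controls. Counts of Nduf genes are therefore also given without 9_3 and 7_2, and without 8_4 and 11_4. Mice 9_3 and 7_2 also had the highest levels of Nduf genes in their group, so leaving them out necessarily lowers that group.

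Complex I is the largest enzyme of the respiratory chain. It takes electrons from NADH, passes them along a chain of iron-sulfur clusters to ubiquinone, and uses the energy to pump protons across the inner mitochondrial membrane. Its catalytic core is made of subunits encoded in the nucleus, which bind the flavin and the iron-sulfur clusters, and of hydrophobic subunits encoded by mitochondrial DNA, which form the proton channels, and around this core sit accessory subunits that stabilise the complex. Assembly factors help to build the complex and leave it when it is finished. Neurons depend on this chain for most of their ATP, and the genes of the complex are regulated in part through shared promoter elements, bound by NRF1, by ETS factors such as GABP, by YY1 and by ERR receptors.

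Because the members are transcribed from separate promoters, the letters of those elements were looked for in the RefSeq promoter windows of GRCm38.p6, which run from 250 bases before to 50 bases after a gene's start. Of the 46 genes, 40 matched by symbol, with 42 windows in all, and 6 had none, Ndufa2, Ndufa4l2, Ndufaf6, Ndufb9 and Ndufs1 among them. The 250 bases before the start are shown for Ndufa1 and Ndufa3, which are among the members with the largest differences between *R. flavefaciens* and control mice, and for Ndufa11, which had the smallest interaction p-value of the members and holds the NRF1 letters GCATGCGC on both strands, overlapping and set in capitals. The Ndufa1 stretch is chrX:37191239-37191488 on the minus strand, that of Ndufa3 is chr7:3617123-3617372 on the plus strand, and that of Ndufa11 is chr17:56717512-56717761 on the plus strand.
Ndufa1: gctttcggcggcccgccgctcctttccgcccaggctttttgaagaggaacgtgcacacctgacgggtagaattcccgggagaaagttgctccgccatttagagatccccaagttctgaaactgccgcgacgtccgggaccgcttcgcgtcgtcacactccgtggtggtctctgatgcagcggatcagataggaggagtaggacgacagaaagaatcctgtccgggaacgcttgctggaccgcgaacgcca
Ndufa3: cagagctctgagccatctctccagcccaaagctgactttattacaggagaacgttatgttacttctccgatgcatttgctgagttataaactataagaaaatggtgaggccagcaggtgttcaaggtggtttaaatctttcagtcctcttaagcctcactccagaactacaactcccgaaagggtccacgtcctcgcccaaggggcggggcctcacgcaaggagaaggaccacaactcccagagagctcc
Ndufa11: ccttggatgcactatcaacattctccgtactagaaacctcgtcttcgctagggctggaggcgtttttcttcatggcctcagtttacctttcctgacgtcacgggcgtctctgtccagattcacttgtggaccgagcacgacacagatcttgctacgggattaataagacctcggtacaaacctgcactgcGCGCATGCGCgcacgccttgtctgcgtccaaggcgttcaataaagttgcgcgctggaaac

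The NRF1 letters GCATGCGC stood in 5 of the 42 member windows (Ndufa11, Ndufaf4, Ndufaf5, Ndufa6 and Ndufa8) and in 2.71% of all 32851 windows. The ETS letters CCGGAAGT were found in the window of Ndufs3 alone among the members and in 3.89% of all windows. The ERR letters TCAAGGTCA were in 0 member windows and 0.423% of all. The letters AAGATGGCG, the YY1 element, stood in 6 member windows and in 1.4% of all. Each search covered both strands, with exact letters, and 30 of the 42 member windows held none of them. All 6 YY1 matches lay on the gene's own strand and after the start, beginning 11 to 36 bases into the transcript, and 30 bases around each are shown so that the shared letters, in capitals, can be compared with the values of these genes below.
Ndufa9, chr6:126849096-126849125, minus strand: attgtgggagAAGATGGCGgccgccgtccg
Ndufaf8, chr11:120098934-120098963, plus strand: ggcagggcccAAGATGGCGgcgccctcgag
Ndufc1, chr3:51408914-51408943, minus strand: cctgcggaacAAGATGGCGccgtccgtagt
Ndufs4, chr13:114388045-114388074, minus strand: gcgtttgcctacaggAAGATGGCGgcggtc
Ndufs6, chr13:73328433-73328462, minus strand: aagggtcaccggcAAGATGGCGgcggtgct
Ndufs7, chr10:80249463-80249492, plus strand: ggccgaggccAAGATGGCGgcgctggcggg

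The values of these 6 genes ranged widely. Against control, *R. flavefaciens* mice had log2 fold changes from 0.02 (Ndufa9) to 0.31 (Ndufs6), and combined mice from -0.16 (Ndufs7) to 0.21 (Ndufs6 and Ndufaf8). A match of letters describes the sequence and is not evidence of a bound site. The YY1 letters also contain ATG, and whether these matches are start codons of the genes was not examined.

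In control mice the members were expressed at very different levels. Per kilobase of transcript, Ndufa4, which is placed with cytochrome c oxidase, was highest at 3293 ± 130 normalized counts (SD, n = 6), and Ndufs5, an accessory subunit of the membrane arm, was at 1308 ± 71.8. The median level per kilobase was 939 for the core subunits, 875 for membrane arm accessory subunits, 749 for matrix arm accessory subunits and 169 for assembly factors. No assembly factor exceeded 255 (Ndufaf5), and every core subunit was at least 603 (Ndufs1). Ndufa4l2, a paralog of Ndufa4 known for its induction in hypoxia, was lowest at 19.4 ± 5.63 per kilobase. Along the order of all 46 levels, 25 of 45 neighbouring pairs differed by less than 1 SD of the control mice. The level of Ndufb2 (115 ± 5.20 per kilobase) rests on an annotated transcript length of 2413 bases and on exons that overlap 3 other annotated genes. In all, 19 of the 46 genes have an annotated exon that overlaps one of another gene, 17 of them on the opposite strand (Ndufa3, Ndufs6 and Ndufa11 included) and 3 on the same strand (Ndufb2, Ndufb8 and Ndufb9), and whether reads were counted by strand is not given in the sources used here.

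*R. flavefaciens* mice had higher mean levels of most complex I genes than control mice, by modest amounts. In the fit with limma, 42 of 46 members had a log2 fold change above 0, against 50.8% of all genes tested. The unadjusted p was under 0.05 for 28 members, all with higher levels (60.9%), where 8.86% of all genes tested were higher and 10.8% lower at that threshold. None of the members passed an adjusted p of 0.05, which 4 of 14974 genes did (0.0267%), and 14 passed 0.1 (30.4% of members, against 3.87% of all genes, or 1.78% counting higher genes only). With the first label number as a random block (intra-block correlation -0.045), 7 members passed 0.05. No share of all genes is given for that fit, so this count cannot be set against all genes. The median log2 fold change of the 46 genes was 0.18 (range -0.09 to 0.34), while the median of all genes was 0.003. All 6 *R. flavefaciens* mice lay above all 6 controls for 7 members, Ndufa1, Ndufb9, Ndufa3, Ndufs6, Ndufb4, Ndufa4 and Ndufb6 (15.2%, against 0.788% of all genes). DESeq2 on the recovered reads called 15 members higher and 0 lower at an adjusted p of 0.05, of 42 that it adjusted, with 2.78% of 8877 genes called higher and 2.82% lower, and edgeR called 0 members and 0.0267% of all genes.

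The members are next given by role, with no test of a difference between roles. In the membrane arm 16 of 19 genes were higher at an unadjusted p under 0.05, with a median log2 fold change of 0.21, and in the matrix arm 7 of 10, with a median of 0.22. Among core subunits 3 of 7 were (median 0.12), among assembly factors 1 of 8 (median 0.10), beside the 8.86% of all genes. Without mouse 9_3 the counts were 14 of 19 (median 0.16), 6 of 10 (0.14), 2 of 7 (0.06) and 0 of 8 (0.06), with 5.38% of all genes higher. Without 9_3 and 7_2 they were 7 of 19 (0.10), 4 of 10 (0.10), 0 of 7 (0.01) and 0 of 8 (0.03), with 4.6% of all genes higher. Transcript length differed between these roles as well: the median was 732 bases in the membrane arm and 992.5 in the matrix arm, against 1623 for core subunits and 1308.5 for assembly factors, with wide ranges (419 to 2413, 528 to 2447, 870 to 2625 and 678 to 3632).

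Ndufa1 is a small accessory subunit of the membrane arm, needed for assembly of the complex (chrX:37187588-37191163, minus strand). Its normalized counts ran from 342 to 393 in control mice (median 363), from 332 to 407 in duloxetine mice (median 383), from 407 to 583 in *R. flavefaciens* mice (median 458) and from 360 to 450 in combined mice (median 417). Every *R. flavefaciens* mouse was above every control mouse, and mouse 9_3 stood highest with 583. The log2 fold change against control was 0.34 ± 0.07 (SE, n = 6 per group, limma adjusted p = 0.0687). The exact two-sided permutation p was 0.00216, the smallest that the groupings of 12 mice can give. Any gene whose groups do not overlap has this p, so it repeats the separation and adds no further support.

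Ndufb9, an accessory subunit of the membrane arm with an LYR motif, ranged from 656 to 770 in control mice (median 716) and from 817 to 1155 in *R. flavefaciens* mice (median 875). The groups did not overlap, and the log2 fold change was 0.33 ± 0.07 (SE, limma adjusted p = 0.0687). Ndufa3, from the same arm, went from 412 to 483 in control mice (median 455) and from 501 to 750 in *R. flavefaciens* mice (median 537). Its log2 fold change was 0.32 ± 0.07 (SE, limma adjusted p = 0.0727), and the highest mouse was again 9_3. Ndufs6, a zinc-binding accessory subunit of the matrix arm, ranged from 431 to 474 in control mice (median 457), from 479 to 732 in *R. flavefaciens* mice (median 544) and from 459 to 586 in combined mice (median 533). Its log2 fold change was 0.31 ± 0.07 (SE, limma adjusted p = 0.0727) for *R. flavefaciens* against control.

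**Figure D1:**
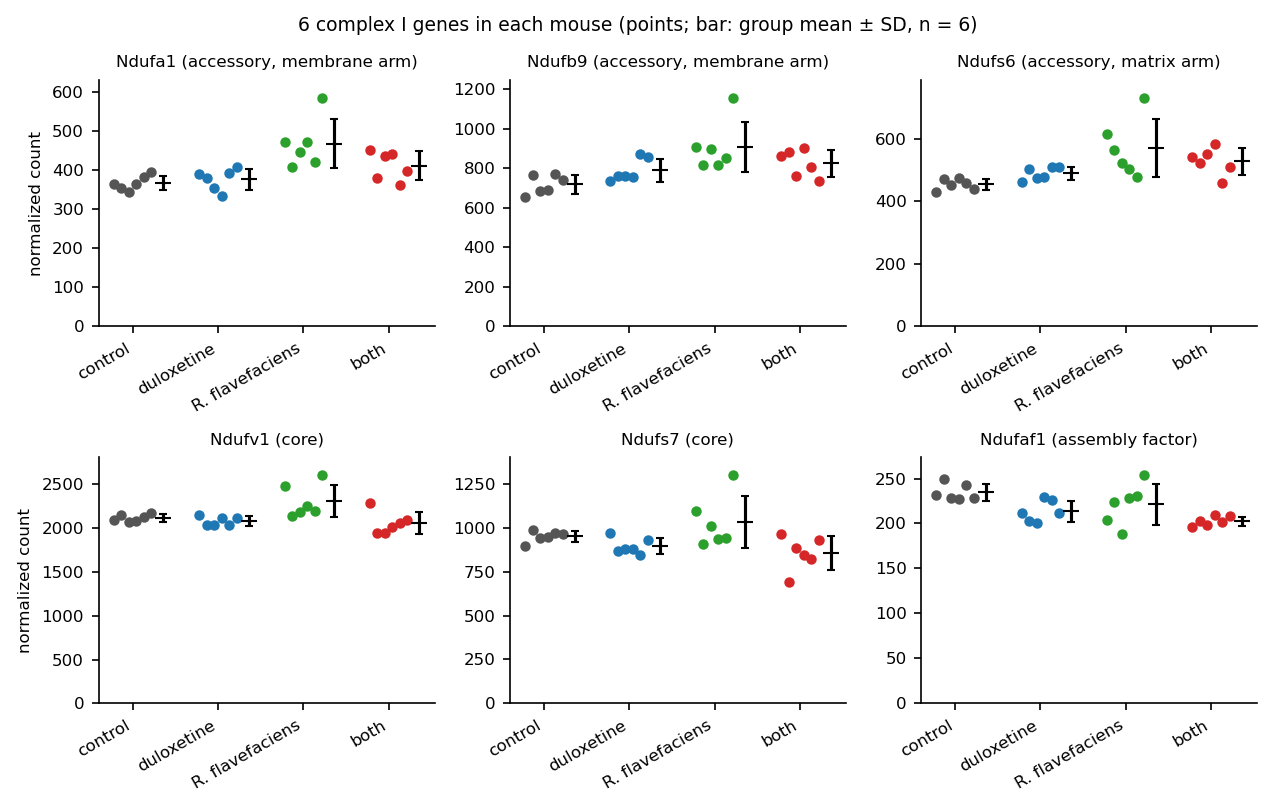
Normalized counts of 6 complex I genes in each mouse (points) with the group mean and SD beside them (n = 6 mice per group, axis from 0). For Ndufa1, Ndufb9 and Ndufs6 all *R. flavefaciens* mice lie above all control mice, with 1 mouse, 9_3, well above the rest, while for Ndufaf1 all combined mice lie below all control mice.

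The next members in the order of p-values had similar sizes of difference. Ndufb10, Ndufc2, Ndufb4 and Ndufb11, all of the membrane arm, had log2 fold changes of 0.21, 0.24, 0.23 and 0.21, and Ndufa5, of the matrix arm, of 0.24, with limma adjusted p-values from 0.0727 to 0.0806. Of these 5 genes, only Ndufb4 had groups that did not overlap, with 565 to 636 normalized counts in control and 648 to 823 in *R. flavefaciens* mice. At the other end of the accessory subunits, Ndufb2 did not differ detectably, with 258 to 293 in control mice (median 280) and 236 to 306 in *R. flavefaciens* mice (median 288), and a log2 fold change of -0.01 ± 0.06 (SE, limma adjusted p = 0.953).

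The core subunits bind the cofactors of electron transfer. Ndufv1, which carries the flavin and the NADH site, had 2066 to 2173 normalized counts in control mice (median 2112) and 2139 to 2603 in *R. flavefaciens* mice (median 2227), a log2 fold change of 0.12 ± 0.05 (SE, limma adjusted p = 0.148). Ndufs3 and Ndufv2 had log2 fold changes of 0.14 (limma adjusted p = 0.118 and 0.175), and those of Ndufs8 (0.12) and Ndufs7 (0.11) had unadjusted p-values above 0.05. Ndufs1, the largest core subunit, had nearly the same median in both groups, 1568 in control and 1573 in *R. flavefaciens* mice, with a log2 fold change of -0.01 ± 0.05 (SE, limma adjusted p = 0.953).

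Assembly factors spread on both sides of 0. Ndufaf8, a partner of Ndufaf5 that was named after its values were seen, had a log2 fold change of 0.24 ± 0.11 (SE, limma adjusted p = 0.22). Ndufaf1, a factor of the membrane arm intermediate, had the lowest fold change of all members, -0.09 ± 0.06 (SE, limma adjusted p = 0.447), with 228 to 249 normalized counts in control and 188 to 253 in *R. flavefaciens* mice. Ndufaf7, a methyltransferase that modifies a core subunit, was at -0.01 ± 0.06. Of the genes placed with complex IV, Ndufa4 had 1677 to 1835 normalized counts in control and 1866 to 2342 in *R. flavefaciens* mice, without overlap, and a log2 fold change of 0.21 ± 0.06 (SE, limma adjusted p = 0.0795). Ndufa4l2 was near the filter, with 12.6 to 26.5 normalized counts in control and 14.4 to 29.5 in *R. flavefaciens* mice.

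**Figure D2:**
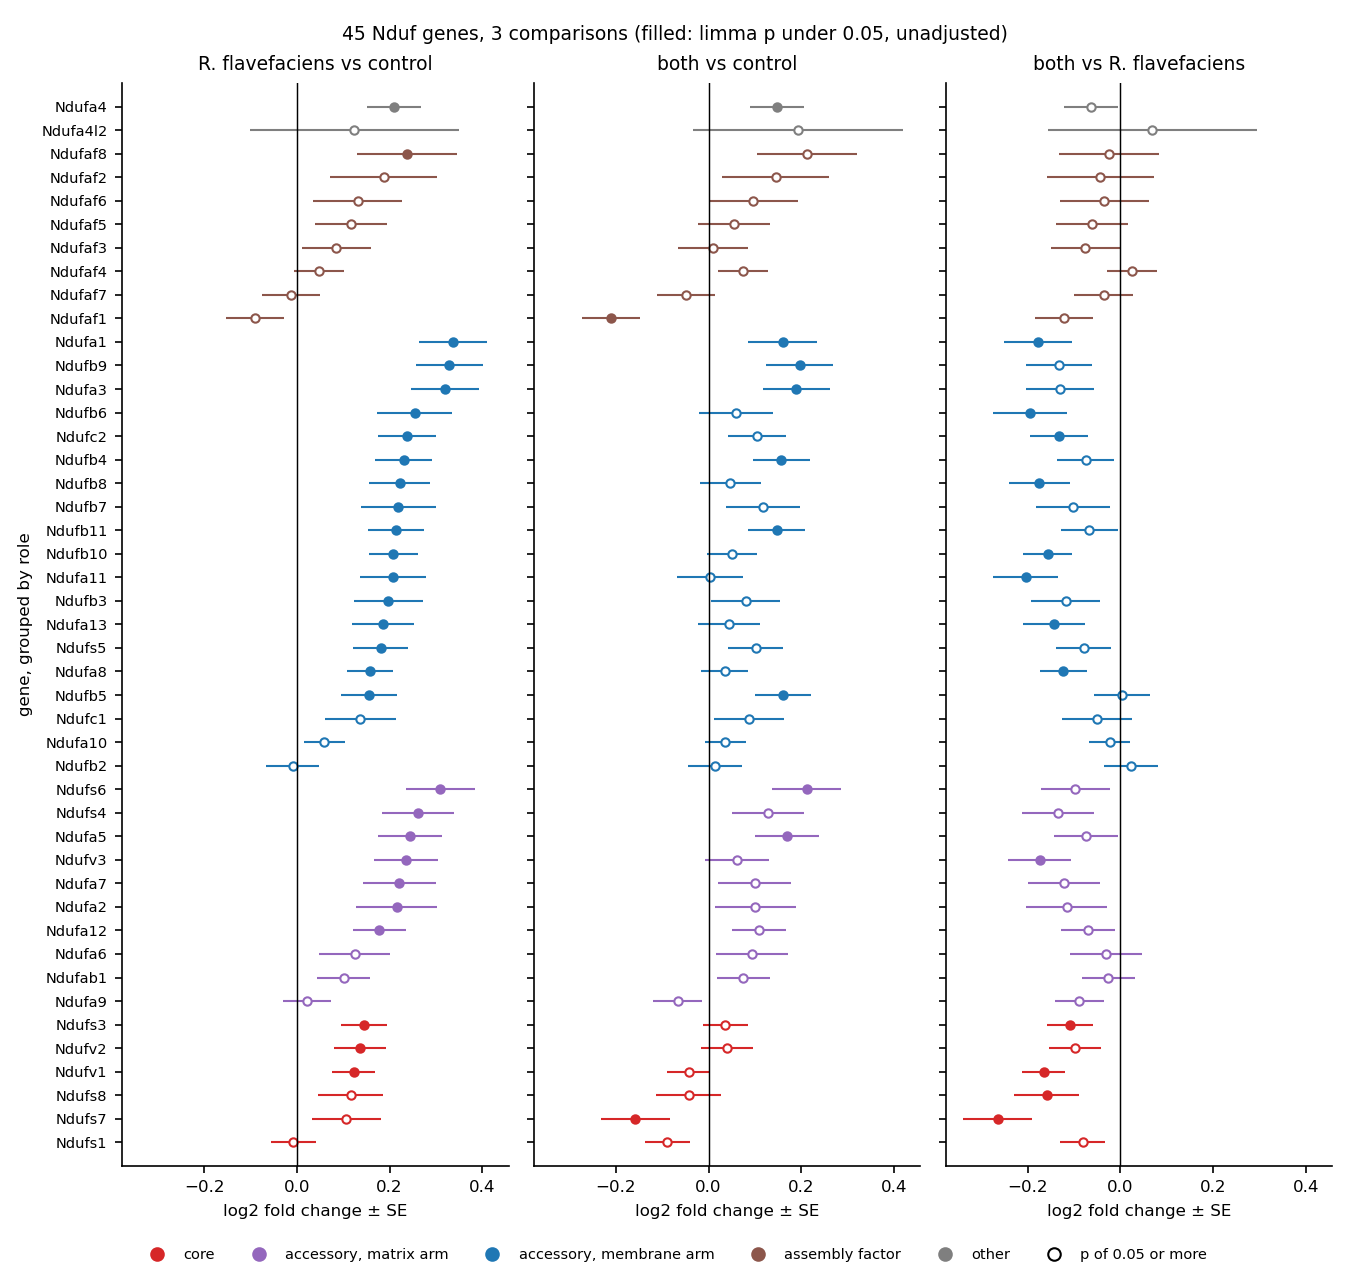
Log2 fold changes (x axis, ± SE from limma) of 45 of the 46 Nduf genes (y axis, grouped and coloured by role) for *R. flavefaciens* against control, combined against control, and combined against *R. flavefaciens*. Filled points have an unadjusted p under 0.05. In the first panel 28 points are filled, all to the right of 0, in the second 9 to the right and 2 to the left, and in the third 13, all to the left.

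The size of the difference followed transcript length. Across the 46 members the log2 fold change for *R. flavefaciens* against control had a Spearman's rho of -0.68 with transcript length, and across 14958 genes with a length the rho was -0.47, both given as descriptions, since the genes share libraries. The members' median transcript length was 921 bases, against 2944 over all genes tested. Of 26 members with transcripts under 1000 bases, 20 were higher at an unadjusted p under 0.05, with a median log2 fold change of 0.22, while of the 1026 other genes of that length 32.2% were higher, with a median of 0.15. Of 19 members with transcripts of 1000 to 3000 bases, 8 were higher, with a median of 0.12, against 12.0% and 0.05 for 6596 other genes. When the trend on length was taken out of each mouse, the members' median was 0.07, 8 were higher (Ndufb9, Ndufa1, Ndufs6, Ndufv3, Ndufa3, Ndufs4, Ndufb4 and Ndufa5) and 1, Ndufaf1, was lower at an unadjusted p under 0.05, with 5.73% of all genes higher and 5.56% lower. By role, 4 of 19 membrane arm genes (median 0.08) and 4 of 10 matrix arm genes (0.08) were then higher. Among assembly factors 0 were higher and 1 lower (0.02). The core subunits had a median of 0.002 and none past that threshold. The part of RNA quality or library preparation in the difference was not tested.

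**Figure D3:**
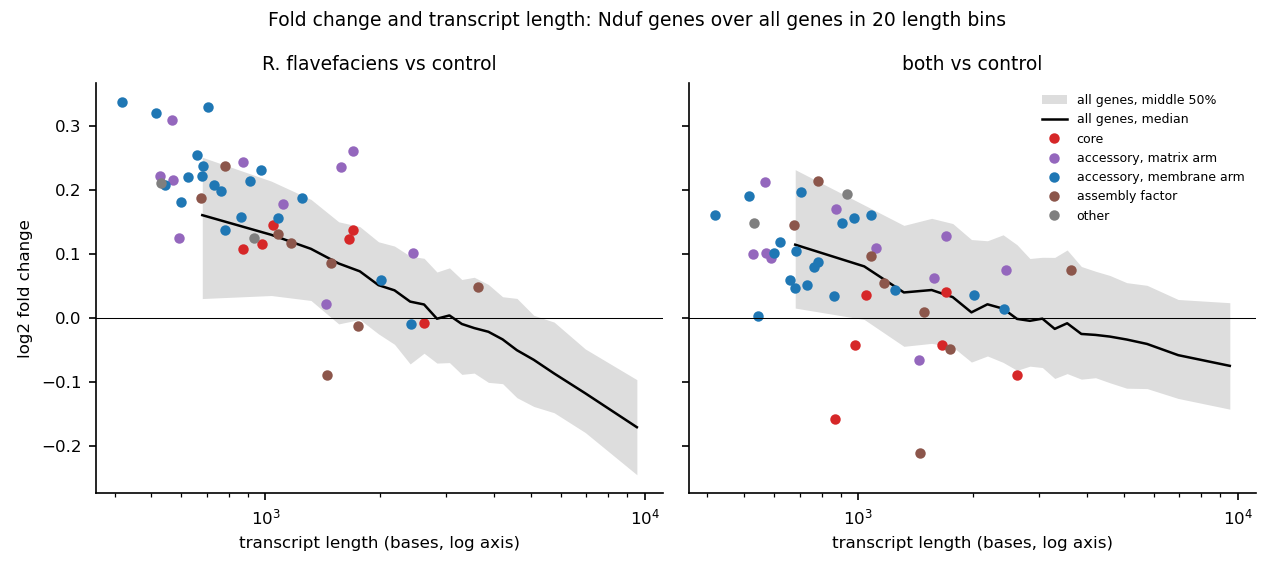
Log2 fold change (y axis) against transcript length in bases (x axis, log scale) for *R. flavefaciens* (left) and combined mice (right) against control. The line and grey band give the median and the middle 50% of all genes in 20 bins of length, and coloured points are 45 of the 46 Nduf genes by role. Shorter genes lie higher on the left, where most accessory subunits lie above the line of genes of like length, and on the right the core subunits Ndufs7, Ndufs8, Ndufv1 and Ndufs1 lie below it.

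The 6 *R. flavefaciens* mice did not contribute equally. The median deviation of the 46 members from their mean over all mice was 0.37 on the log2 scale in mouse 9_3 and 0.18 in mouse 7_2, and from -0.03 to 0.05 in the other 4, against -0.10 to -0.03 in control mice. The lowest *R. flavefaciens* mouse thus lay at the level of the highest control mice. Without mouse 9_3, 23 members were higher and 1 (Ndufaf1) lower at an unadjusted p under 0.05, with a median log2 fold change of 0.12 and with 5.38% of all genes higher and 6.13% lower. Without both 9_3 and 7_2, 12 were higher and 0 lower, with a median of 0.08 and 4.6% of all genes higher, and Ndufa3, Ndufb9, Ndufa1 and Ndufs6 were again those with the smallest p-values. Without 8_4 and 11_4, the mice with the highest striatal markers, 28 members were higher, against 8.05% of all genes, and the median was 0.19.

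**Figure D4:**
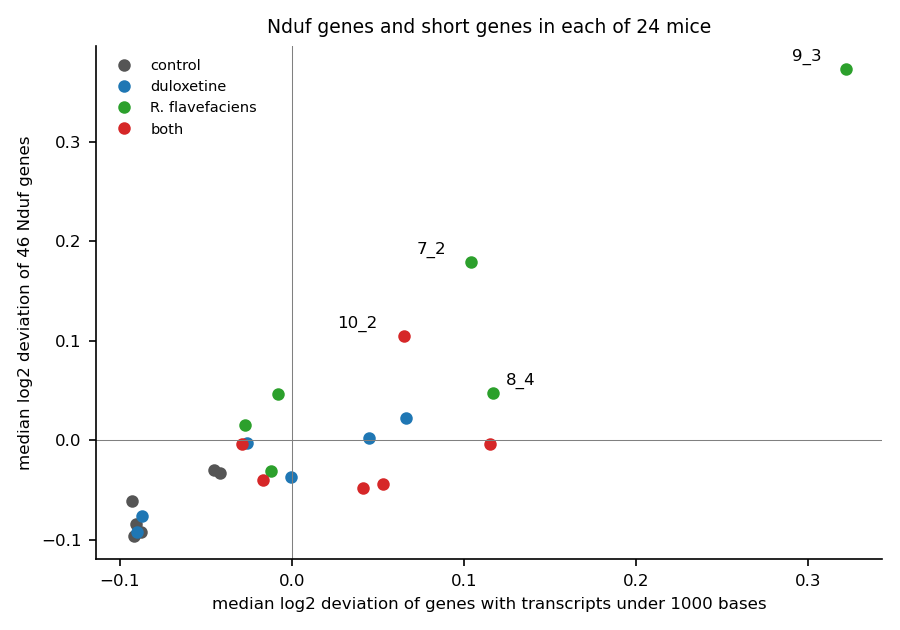
Median log2 deviation from the mean over all mice, in each of 24 mice, of the 46 Nduf genes (y axis) against that of all genes with transcripts under 1000 bases (x axis), coloured by group. Mouse 9_3 lies far from the rest on both axes (0.32 and 0.37), followed on the y axis by mice 7_2 and 10_2, and the control mice lie at the lower left.

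Mice given both treatments had a smaller median difference from control than *R. flavefaciens* mice (0.08 against 0.18). Without mice 9_3 and 7_2 these medians were 0.078 and 0.083. The mice left out were those of the *R. flavefaciens* group with the highest member medians, while the highest combined mouse, 10_2, was kept. The nearness of the medians therefore follows in part from that choice. For combined against control, a log2 fold change above 0 was found for 38 of 46 members (82.6%, against 50.2% of all genes). Of the 46 members, 9 were higher at an unadjusted p under 0.05 (19.6%, against 8.08% of all genes), namely Ndufs6, Ndufb9, Ndufa3, Ndufb4, Ndufa4, Ndufa5, Ndufb5, Ndufb11 and Ndufa1, and 2 were lower, Ndufaf1 and Ndufs7 (4.35%, against 8.73%). No member passed an adjusted p of 0.05 or 0.1, where 0.1% and 0.841% of all genes did. Without mice 8_4 and 11_4, 9 were higher and 2 lower, against 7.7% and 8.2% of all genes, and without 9_3 and 7_2, 12 and 2, against 9.0% and 11.1%. The median log2 fold change was 0.08 over all members, 0.09 for the membrane arm, 0.10 for the matrix arm, and -0.04 for the core subunits, of which 5 of 7 were below 0. With the length trend taken out, none was higher and 8 were lower (Ndufaf1, Ndufs7, Ndufa11, Ndufs8, Ndufv1, Ndufa9 and Ndufs1 among them), where 12.0% of all genes were lower, and the median turned to -0.02.

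Ndufaf1 was the member whose groups separated here. Its normalized counts were 228 to 249 in control mice (median 230), 200 to 229 in duloxetine mice (median 212) and 196 to 209 in combined mice (median 202). All combined mice were below all controls, which held for 1.16% of all genes. The log2 fold change was -0.21 ± 0.06 (SE, limma adjusted p = 0.123). The exact permutation p of 0.00216 only repeats that the groups did not overlap. Ndufs7, the core subunit that carries the last iron-sulfur cluster before ubiquinone, had 897 to 985 normalized counts in control mice (median 957) and 691 to 964 in combined mice (median 866), with overlap, and a log2 fold change of -0.16 ± 0.07 (SE, limma adjusted p = 0.284).

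Against *R. flavefaciens* alone, the combined mice had lower levels of 42 of 46 members, where 50.5% of all genes tested were above 0. The difference was lower at an unadjusted p under 0.05 for 14 members (30.4%, against 9.9% of all genes) and higher for 0 (against 9.76%), with a median log2 fold change of -0.10. None passed an adjusted p of 0.05, where 2.23% of all genes did, and 2 core subunits passed 0.1 (4.35%, against 5.62%). These were Ndufv1, at -0.17 ± 0.05 (SE, limma adjusted p = 0.0548), and Ndufs7, at -0.27 ± 0.07 (SE, limma adjusted p = 0.0548). Ndufv1 ran from 2139 to 2603 in *R. flavefaciens* mice and from 1945 to 2284 in combined mice, and Ndufs7 from 909 to 1298 and from 691 to 964, so both overlapped. DESeq2 called these 2 genes lower at an adjusted p of 0.05 (4.35% of members, against 2.08% of genes) and edgeR called 0 members, with 2.18% of genes called. Of the 7 core subunits, 5 were lower at the unadjusted threshold, and so were 8 of 19 membrane arm genes and 1 of 10 matrix arm genes. Without mice 9_3 and 7_2, 2 members were lower, against 7.27% of all genes, the median was -0.003 and 22 of 46 were above 0. Without mice 8_4 and 11_4, 11 were lower, against 9.76%, with a median of -0.10.

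The interaction asks whether the effect of *R. flavefaciens* differed with duloxetine present. At an unadjusted p under 0.05 it was negative for 10 members (21.7%, against 3.67% of all genes) and positive for 0 (against 3.86%), with a median of -0.14 on the log2 scale, and no member or other gene passed an adjusted p of 0.1. The smallest p-value belonged to Ndufa11, an accessory subunit of the membrane arm, at -0.29 ± 0.10 (SE, limma adjusted p = 0.639). Ndufa11 had 524 to 606 normalized counts in control mice, 558 to 662 in duloxetine mice, 555 to 760 in *R. flavefaciens* mice and 511 to 653 in combined mice. Without mice 9_3 and 7_2, 2 members were negative at that threshold, against 2.28% of all genes, and without 8_4 and 11_4, 9 were, against 3.99%. The median was -0.06 without 9_3 and 7_2 and -0.08 with the length trend taken out.

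With duloxetine alone, 37 of 46 members had a log2 fold change above 0 (80.4%, against 49.0% of all genes). At an unadjusted p under 0.05 only Ndufaf1 was lower and none was higher (2.17%, against 1.63% of all genes lower and 2.2% higher), with a log2 fold change of -0.14 ± 0.06 (SE, limma adjusted p = 1.0), and 0 genes of the whole table passed an adjusted p of 0.05 by limma, with 573 at an unadjusted p under 0.05, or by edgeR, while DESeq2 called 1. The members' median log2 fold change was 0.04, and a fit of these 2 groups alone had 5 members higher and 3 lower at an unadjusted p under 0.05, against 3.31% and 3.71% of all genes. With the length trend taken out, 21 of 46 members were above 0 and the median was -0.0024. At that threshold 0 were then higher and 3 lower, against 1.71% and 2.47% of all genes. Between combined and duloxetine mice, Ndufb2 was higher and Ndufs1 lower at that threshold (4.35% of members together, against 5.9% of all genes). All combined mice (271 to 293 normalized counts) were above all duloxetine mice (242 to 269) for Ndufb2, which held for 0.127% of all genes, with a log2 fold change of 0.13 ± 0.06 (SE, limma adjusted p = 0.818). The comparisons with control share the same 6 control mice, and those with *R. flavefaciens* or combined mice share those groups too, so they are not independent of each other.

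The members also varied together among mice of a group. With each group's mean subtracted, the 1035 pairs of members had a median Pearson's r of 0.50 over 24 mice, and 50.4% of pairs were above 0.5, against a median of -0.002 and 4.93% for pairs of the other tested genes. Without mouse 9_3 the members' median r was 0.30, with 25% above 0.5. Ndufa2 and Ndufa11 followed the other members most closely (median r 0.67 and 0.66), and Ndufaf4 and Ndufs1 least (-0.03 and 0.06). These values are descriptions, since all genes of a mouse share a library and short transcripts deviate together in these libraries.

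The 7 complex I subunits encoded by mitochondrial DNA did not follow the same order of groups. Their summed normalized counts were 164718 to 188139 in control mice (median 175632), 189999 to 248681 in duloxetine mice (median 205014), 163999 to 222337 in *R. flavefaciens* mice (median 182243) and 187752 to 278854 in combined mice (median 219850). All duloxetine mice were above all control mice in this sum, and all but 1 of the combined mice were. For *R. flavefaciens* against control 1 of 7, mt-Nd3, was higher at an unadjusted p under 0.05 (log2 fold change 0.27 ± 0.11, SE, limma adjusted p = 0.157), for duloxetine against control 7 of 7 (against 2.2% of all genes, median 0.28, limma adjusted p = 1.0 for each), and for combined against control 7 of 7 (against 8.08%, median 0.40, limma adjusted p from 0.0519 to 0.114). Between combined and *R. flavefaciens* mice 14 of 46 Nduf genes were lower and 6 of 7 mitochondrial genes higher at an unadjusted p under 0.05 (against 9.9% and 9.76% of all genes), mt-Nd5 and mt-Nd4l with limma adjusted p = 0.0171 each and log2 fold changes of 0.38 and 0.40. Without mice 9_3 and 7_2 the mitochondrial genes were higher in 7 of 7 (median 0.34, against 7.45% of all genes). Of the 46 Nduf genes 2 were then lower, a smaller share than the 7.27% of all genes, with a median of -0.003. These 7 genes lie on the same mitochondrial DNA and share libraries, so 7 of 7 does not stand for 7 independent results. Mitochondrial transcripts and nuclear ones can be captured differently by poly(A) selection, and its part here was not tested.

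Other nuclear genes of the respiratory chain also had higher levels in *R. flavefaciens* mice, given here by complex with no test of a difference between complexes. Against control, 12 of 13 tested complex IV subunits (median log2 fold change 0.25), 15 of 17 ATP synthase subunits (0.19), 5 of 9 complex III subunits (0.19) and 2 of 4 complex II subunits (0.10) were higher at an unadjusted p under 0.05 and none lower, beside the 8.86% of all genes given above. Without mice 9_3 and 7_2 the numbers were 8 of 13 (median 0.15), 7 of 17 (0.10), 3 of 9 (0.10) and 0 of 4 (0.03), beside 4.6% of all genes. The summed complex IV subunits ran from 18859 to 21040 normalized counts in control and from 21379 to 30034 in *R. flavefaciens* mice (median 22927). The smallest p-values were those of Cox8a (log2 fold change 0.36 ± 0.07, SE, limma adjusted p = 0.0261), Atp5l (0.33 ± 0.07, limma adjusted p = 0.0687), Uqcrq (0.29 ± 0.07, limma adjusted p = 0.0727) and Sdhc (0.14 ± 0.06, limma adjusted p = 0.165). Of 12 assembly factors of complex I without an Nduf name 2 were higher and 1 lower (against 8.86% and 10.8% of all genes), with the smallest p for Tmem186 at -0.16 ± 0.07 (SE, limma adjusted p = 0.195). Of 12 regulators of mitochondrial genes 1 was higher and 3 were lower (against the same shares), among them the coactivator Ppargc1b at -0.26 ± 0.08 (SE, limma adjusted p = 0.103) and Yy1 at -0.10 ± 0.04 (SE, limma adjusted p = 0.157). Without mice 9_3 and 7_2, 0 of the 12 assembly factors passed that threshold, and 1 of the regulators was higher and 1 lower (against 4.6% and 5.22% of all genes). Nrf1, whose element was searched for above, had a log2 fold change of 0.01 ± 0.09 (SE, limma adjusted p = 0.959). Transcript lengths of the genes in these lists are not given here. For *R. flavefaciens* against control, 32.2% of genes under 1000 bases were higher, Nduf genes left out. Of those of 3000 bases or more, 18.7% were lower. The part of transcript length in these lists was not tested.

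Markers of cortical cells were present as the tissue label says, with 6 of 6 excitatory neuron markers detected, Camk2a the most abundant. In bulk tissue, fewer cells of a type and less RNA per cell cannot be told apart. For *R. flavefaciens* against control, 8.86% of all genes were higher and 10.8% lower at an unadjusted p under 0.05. Of 5 blood markers 4 were higher, with sums of 278 to 448 normalized counts in control mice (median 350) and 418 to 988 in *R. flavefaciens* mice (median 535), Hbb-bs the most abundant. Of 6 markers each, 3 were higher for inhibitory neurons (sums of 9417 to 10713 in control and 10283 to 11433 in *R. flavefaciens* mice, Gad1 the most abundant) and 3 for microglia (3072 to 3472 and 3327 to 4068, Csf1r the most abundant), 1 was higher for astrocytes, and 1 was lower for excitatory neurons. None of the oligodendrocyte, endothelial or striatal markers passed, and oligodendrocyte sums spread widely in both groups, from 13868 to 37718 and from 12095 to 45393. Of the 2 choroid plexus markers in the table, Ttr and Clic6, 1 was higher, with sums of 2.12 to 11.5 in control and 4.43 to 717 in *R. flavefaciens* mice, the highest being mouse 8_4, which also had the highest blood sum of its group. Without mice 8_4 and 11_4, 1 of 5 blood, 2 of 6 inhibitory neuron, 3 of 6 microglia, 1 of 6 astrocyte and 1 of 2 choroid plexus markers were higher (against 8.05% of all genes). In that setting 2 of 6 striatal markers were lower (against 8.88%). Without 9_3 and 7_2, 3 blood, 2 inhibitory neuron, 2 microglia, 1 astrocyte, 2 choroid plexus and 1 striatal markers were higher (against 4.6% of all genes). Markers also differed in other comparisons at that threshold. For combined against control, 5 of 5 blood and 4 of 6 microglia markers were higher (against 8.08% of all genes). So was 1 marker each of inhibitory neurons, astrocytes, endothelial cells and choroid plexus. For duloxetine against control, 4 of 6 microglia and 1 of 6 endothelial markers were higher (against 2.2%), and 1 of 6 astrocyte markers was lower (against 1.63%). For combined against *R. flavefaciens*, 2 of 6 inhibitory neuron markers were lower (0 without 9_3 and 7_2, 1 without 8_4 and 11_4), and 1 endothelial marker (against 9.9%). Higher were 1 marker each of excitatory neurons, astrocytes and endothelial cells (against 9.76%). The part of these cell types in the values of the Nduf genes was not tested, apart from the mice left out above.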

How the data were processed

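The deposited signal values are normalized counts: the authors mapped poly(A) reads with TopHat2 2.1.0 and Bowtie2 2.2.6 and divided gene counts by a size factor per mouse with DESeq2 1.18.1. The submitters' notes name mm9 and the methods GRCm38.p5; the positions in the table match GRCm38 (GENCODE vM21) for 37 of 46 Nduf genes exactly. The counting program and the filter behind the table are not given in the sources used here. The value of a single read in each mouse was found from the spacing of low values (tolerance 0.0051), and division by it gave the reads that stand for depth; at least 99.974% of values per mouse came out whole. No 2 mice of a group were alike within sampling noise (chi-square per degree of freedom 2.11 to 26.8 over 60 pairs). The labels give 1 library per mouse, so p-values measure the spread between these mice.

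Values were tested as log2(normalized count + 1) with limma 3.58.1 in R 4.3.3, with a trended prior, in 1 fit of 4 groups and 6 comparisons over 14974 genes with a mean of at least 10, two-sided, with Benjamini-Hochberg adjustment over all genes within a comparison. A fold change on this scale understates the change of low genes. Single genes were also compared by exact two-sided permutation tests over all groupings of the 12 mice. Transcript lengths and GC content are medians over the APPRIS principal transcripts of GENCODE vM21, or over its basic transcripts where none is principal. Alternatives were another pseudocount (0.1), a minimum mean of 50 or none, only the groups compared, quantile normalization, 75th percentile rescaling, the first label number as a random block, loess trends (span 0.3) on length and GC removed, DESeq2 1.42.0 and edgeR 4.0.16 on recovered reads, an adjusted p of 0.1 and each mouse left out; leaving out mice 7_2 and 9_3, and mice 8_4 and 11_4, was added after the values were seen, for lists as well. The scripts were tested on simulated data. Python 3.11.15, pandas 2.3.3, numpy 2.4.6, scipy 1.17.1 and matplotlib 3.10.9 were used.

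The members and all lists (chain subunits, assembly factors, regulators, cell markers, motifs) were chosen with earlier results of these data known. Genes were named by rule: the 10 members with the smallest p-values and the 3 with the lowest fold changes for *R. flavefaciens* against control, the member with the smallest p-value in each other comparison, the highest and lowest levels per kilobase, the core subunits, Ndufa4 and Ndufa4l2, and the list gene with the smallest p-value. Others are named where a count is small, or as sequence examples, after their values were seen. Values of 1 gene are not reported here by name, though it is counted among the 46. Promoter sequences come from RefSeq, build GRCm38.p6.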

Additional observations from a re-analysis of the deposited data

Results flagged for a closer look

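In 88 groups of 6 values (21 named genes and the members' median deviation, each in 4 groups), 6 had a highest mouse set apart from the other 5 by most of the group's range. Chance alone sets a value apart in about 1 group in 20. In the *R. flavefaciens* mouse 9_3, Ndufa1 was at 583 normalized counts (next mouse 471), Ndufb9 at 1155 (next 908) and Ndufa3 at 750 (next 566). Without this mouse the log2 fold changes against control were 0.27, 0.26 and 0.24, each with a limma adjusted p of 0.132. Ndufaf7 was at 350 in the combined mouse 11_4 (next 319), and Ndufs1 at 1651 in the control mouse 2_1 (next 1591). The median log2 deviation of all 46 Nduf genes was 0.10 in the combined mouse 10_2, with the next combined mouse at -0.0034.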

How the results depend on the processing

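Most alternatives left the direction of the members' difference between *R. flavefaciens* and control mice as it was, and the size and the adjusted calls moved. With 1 mouse left out, the number of members at an unadjusted p under 0.05 ran from 24 to 31 (23 higher and 1 lower without mouse 9_3), the median log2 fold change from 0.122 to 0.208 and the number at an adjusted p under 0.05 from 0 to 14 (14 without 8_3, 13 without 9_2, 6 without 9_1). Adjusted calls numbered 7 with the first label number as a random block, 15 by DESeq2 and 14 at an adjusted p of 0.1. No share of all genes is given for the block or for adjusted calls with 1 mouse left out. The same holds for unadjusted counts that have no share beside them here or in the results above. Those counts, here and below, can therefore not be set against all genes. With the length trend removed, 9 members were at an unadjusted p under 0.05 with a median of 0.066, and with length and GC trends removed 10 with a median of 0.057. With mice 7_2 and 9_3 left out there were 12.

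For duloxetine against control, the members at an unadjusted p under 0.05 were 8 (5 higher, 3 lower) with only the groups compared, 2 with quantile normalization, 0 with 75th percentile rescaling or by DESeq2, 3 with the length trend or both trends removed (medians -0.0024 and -0.0025), 5 with mice 7_2 and 9_3 left out and 0 to 3 with 1 mouse left out (0 without 2_1, 5_1, 5_3 or 6_3, 2 without 3_3 or 7_2, and 3 without 9_3). With mice 7_2 and 9_3 left out, 3 were higher and 2 lower, against 2.75% and 2.23% of all genes. For combined against control, the median was -0.025 with the length trend removed and -0.026 with both removed, when 7 members were at an unadjusted p under 0.05, and 1 member, Ndufs6, passed an adjusted p of 0.05 with mice 7_2 and 9_3 left out. For combined against duloxetine the count was 0 with quantile normalization, 1 by DESeq2, 7 with mice 7_2 and 9_3 left out and 0 to 6 with 1 mouse left out (0 without 6_1 or 12_2, 1 without 5_3, 5_4, 11_4 or 12_4, 4 without 12_3 and 6 without 9_3). The 7 were 6 higher and 1 lower, against 3.6% and 4.37% of all genes. The 6 without 9_3 were 5 higher and 1 lower, against 3.45% and 4.11%.

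For combined against *R. flavefaciens*, the count at an unadjusted p under 0.05 was 5 with only the groups compared, 9 with quantile normalization, 7 with 75th percentile rescaling, 2 with mice 7_2 and 9_3 left out and 4 to 17 with 1 mouse left out (4 without 9_3, 8 without 11_3 and 9 without 7_2). The 5 were all lower, against 6.28% of all genes, and so were the 4 without 9_3, against 8.03%. Members at an adjusted p under 0.05 were 2 with a minimum mean of 50, with the random block and by DESeq2, 3 with the length trend and 1 with both trends removed, 2 at an adjusted p of 0.1, and 0 to 2 with 1 mouse left out (2 without 8_3 or 10_2, 1 without 8_4, 9_2 or 12_4). The interaction had 6 members at an unadjusted p under 0.05 with the length trend removed, 4 with both removed, 2 with mice 7_2 and 9_3 left out and 6 to 16 with 1 mouse left out (6 without 7_2 or 9_3, 16 without 8_3). With the length trend removed all 6 were negative, against 3.29% of all genes.

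Some named genes changed sign for *R. flavefaciens* against control. Ndufaf7 became 0.0027, Ndufb2 0.006 and Ndufs1 0.0076 with 75th percentile rescaling, and Ndufs1 0.030 with quantile normalization. With the length trend removed Ndufs7 was -0.014, and with both trends removed Ndufs7 was -0.047, Ndufs8 -0.026 and Ndufa4l2 -0.026. With mice 8_4 and 11_4 left out Ndufaf7 was 0.024 and Ndufs1 0.031, and with 7_2 and 9_3 left out Ndufb2 was 0.011 and Ndufs7 -0.0036. With 1 mouse left out Ndufaf7 ran from -0.0537 to 0.0237, Ndufb2 from -0.0385 to 0.0363 and Ndufs1 from -0.0377 to 0.0307. Over 21 genes and up to 37 alternatives, 711 values kept their sign and side of the threshold, 42 newly passed it and 23 changed sign. The causes of these changes were not tested. No paired analysis was possible because the groups share no replicate numbers.

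Depth limits Ndufa4l2 most, the member with the lowest counts, and 6 mice per group limit the precision of all. The lengths behind the length trend come from GENCODE vM21, which matched the table's positions for 37 of 46 members.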

Other observations

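The share of members above their own mean over all mice gives another view of how evenly the Nduf genes deviated. In the *R. flavefaciens* mouse 9_3 and the combined mouse 10_2, 43 of 46 members were above their means, and in mouse 7_2 40 were, while the other *R. flavefaciens* mice had between 19 and 34. In control mice between 7 and 16 members were above, and in duloxetine mice between 6 and 32. In the combined mice other than 10_2 the number lay between 12 and 23. Mouse 10_2 had 15030458 recovered reads and a Spearman's rho of -0.175 between deviation and transcript length across genes, the steepest of the combined mice.

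Beyond the members, the assembly factor Ecsit, which works beside Ndufaf1 in building the membrane arm, had 447 ± 34.4 normalized counts in control mice, 452 ± 9.96 in *R. flavefaciens* mice and 400 ± 17.1 in combined mice (SD, n = 6). Between combined and *R. flavefaciens* mice its log2 fold change was -0.18 ± 0.05 (SE, limma adjusted p = 0.0495). Ecsit was named after its values were seen.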
